A study of Homo sapiens with 27 samples.

Results

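Control 22Rv1 cells were compared with control PC3 cells, 2 human prostate cancer lines. The 6 libraries compared were the 3 of 22Rv1 and the 3 of PC3 that carry the control guide, called control gRNA #1 in both lines, out of 27 libraries in the series. The genotype of all 6 is given as wild type, meaning that RIPK2 was not targeted; no drug, hormone or time point is named for them. The other libraries come from RIPK2-targeted cells of the same lines and from DU145, another prostate cancer line; of these, the 3 of 22Rv1 and the 3 of PC3 that carry RIPK2 gRNA 10 were used as a second set in which to look at the same line difference. The labels name neither clones nor pools, nor the delivery of Cas9 and the guide, and leave unsaid whether the 3 libraries of a group came from separate cultures. The p-values therefore measure only the spread between these libraries, which may be technical, and each line is 1 line, so a difference is one between 22Rv1 and PC3 and not between classes of tumour.

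22Rv1 was derived from a prostate cancer xenograft that relapsed after castration, and it expresses androgen-responsive luminal genes such as the kallikrein KLK3 (prostate-specific antigen). PC3 was derived from a bone metastasis, and is used as a model that grows without androgen. An epithelial cell holds its neighbours through E-cadherin (CDH1) and the catenins. A mesenchymal cell has intermediate filaments of vimentin (VIM) and secretes collagens and fibronectin, and the transcription factors ZEB1 and ZEB2 repress epithelial genes by binding E-boxes in their promoters.

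The libraries held 18665584 to 18908930 counts in 22Rv1 and 20504255 to 20650819 in PC3. Levels are given as CPM, counts relative to the library's total, scaled by TMM factors; they are not divided by gene length, so they compare lines within a gene and not genes with each other. The floor is the level of 3 counts, which bounds what a gene without reads could have. Where every library of a line had at most 3 counts, a fold is given as a lower bound against the floor of that line. Replicates were closer in PC3 than in 22Rv1, with a common coefficient of variation of 3.265% against 10.73%. The second 22Rv1 library stood apart: a chi-square test of counts gave 19.7 and 16.2 per degree of freedom for its pairs with the first and the third, 7.46 for the pair without it, and 2.12 to 3.39 for the PC3 pairs. Without it 8140 genes were called 2-fold, against 7992 with all 6 libraries and 8172 to 8243 with any other library left out. Of the values of the control comparison below, the KRT18 call and the sign of NOD1 changed without the second 22Rv1 library. Without it 2 basal genes instead of 1 were higher in 22Rv1, and 2 markers of other cell types instead of 1 in PC3. The calls of GRAMD1B, S100A16 and SULF2 in the comparison with the gRNA 10 set were lost without it too. Except for the sign of NOD1, each of these changes also came with some other library left out. A symbol that a line's table does not list was taken as 0 counts in that line. The zeros are therefore assumed in PC3 for KLK2, KLK4, KLK15, SRRM4, PLA2G3, FABP7, ZBTB16, KIT, HOXB7, HOXD9, MAGEA4, GHDC and ZNF676, and in 22Rv1 for CXCL1, CXCL6, SAMD9L, FLI1, CD3D, LINC02582, MIR100HG and PI3. Mitochondrially encoded genes took 4.44% to 4.69% of counts in PC3 and 0.515% to 1.28% in 22Rv1, and their part in the results was not tested beyond leaving them out before scaling. Of 22 markers of leukocytes, endothelial cells and red cells listed in the tables, 5 passed the filter on low counts. The summed level of the markers was 6.69 to 8.70 CPM in 22Rv1 and 3.79 to 4.36 in PC3. The pan-leukocyte gene PTPRC was at the floor in both lines, and the T cell gene CD3D had no count in any of the 6 libraries. CD4 and CD14 were among the 3 called higher in 22Rv1, and PECAM1 was higher in PC3; CD4 made up the largest share in 22Rv1, at 4.76 ± 1.01 CPM (SD, n = 3), and their part in the results was not tested. Values given as mean ± below are SDs over the 3 libraries of a line. Those beside log2 differences are approximate SEs, the size of the difference divided by the square root of the test's F. That test uses 1 spread per gene for both lines.

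The markers given for the lines went with the labels. KLK3 was at 18.4, 17.7 and 20.2 CPM in 22Rv1 and had no count in any PC3 library, at least 120-fold lower. VIM was at 12.6, 13.3 and 11.5 CPM in 22Rv1 and at 1535, 1492 and 1548 in PC3. The libraries of the lines did not overlap for either gene. The log2 difference of VIM, 22Rv1 minus PC3 as for all such values here, was -6.94 ± 0.09 (edgeR adjusted p = 2.57e-15). In bulk RNA, fewer cells that express a gene and less of its RNA per cell cannot be told apart.

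Most genes differed between the lines. In edgeR's quasi-likelihood test at an adjusted p of 0.05, 13317 of 15358 genes (86.7%) were called, 6787 (44.2%) of them higher in 22Rv1 and 6530 (42.5%) higher in PC3. At least 2-fold was asked for in addition, which 7992 genes (52.0%) met. These were split evenly, with 3995 (26.0%) higher in 22Rv1 and 3997 (26.0%) higher in PC3. "Higher" and counts of list members below refer to this 2-fold call unless a value is given with its own p. The libraries of the lines did not overlap for 13460 genes (87.6%), the background against which non-overlap of a single gene is to be read. Differences were often large: 4452 genes differed over 4-fold and 2287 over 16-fold. Complete contrasts were common too. In PC3, 330 genes had at most 3 counts in each library while each 22Rv1 library had at least 100, and 244 genes showed the reverse. Of these, 80 and 36 are symbols that the silent line's table does not list. Of the 2-fold calls, 3995 of 7992 were higher in 22Rv1 with TMM, against 56.5% with library totals only, a scaling that shifts the median of all genes by 0.19 on the log2 scale.

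**Figure D1:**
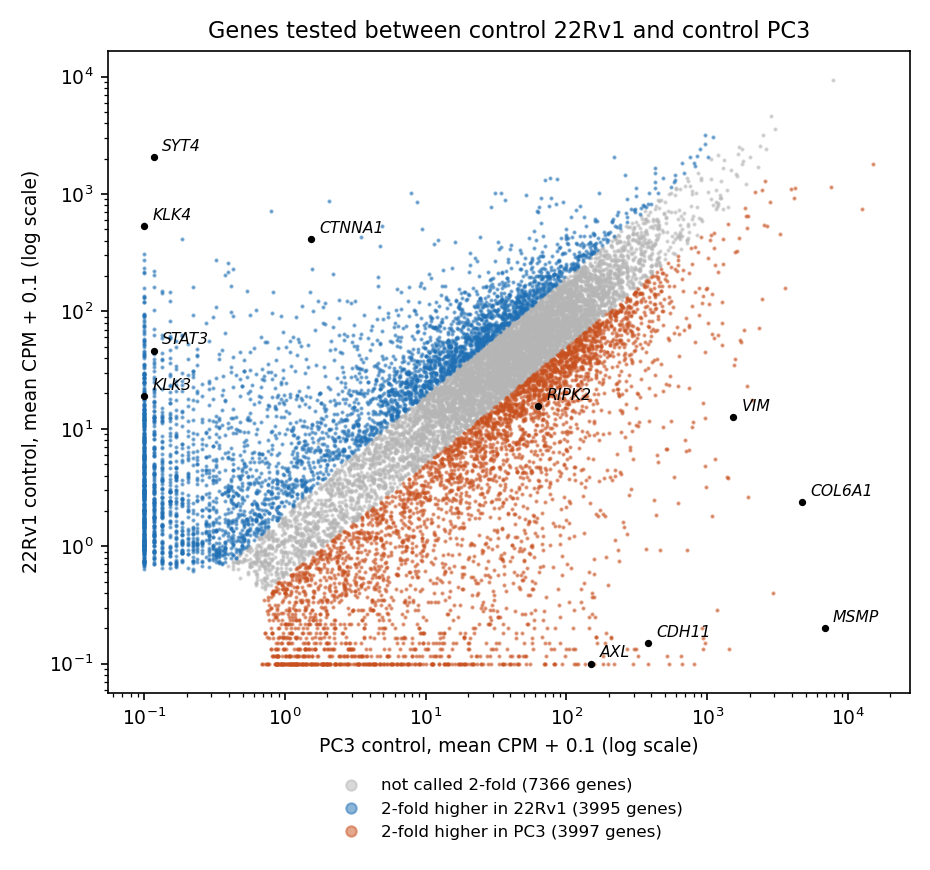
Mean CPM + 0.1 of each gene tested in the 3 control libraries of PC3 (horizontal, log scale) and of 22Rv1 (vertical, log scale). Blue points are the 3995 genes called 2-fold higher in 22Rv1, orange points the 3997 called 2-fold higher in PC3, and grey points the rest; the columns and rows of points at the edges are genes with 0 or a few counts in one line.

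Among genes with a mean of at least 1000 counts in the higher line, the largest fold differences toward 22Rv1 included SYT4, KLK4, SRRM4, MAGEA4, NEFH and COLCA1. SYT4, a synaptotagmin of secretory vesicles, stood at 1942, 2332 and 1896 CPM in 22Rv1, and the PC3 libraries held 1 count in all, at least 13191-fold lower. SRRM4, a neural splicing factor, was at 309 ± 15.5 CPM in 22Rv1 with no count in PC3. COLCA1 was at 552 ± 49.3 CPM, PLA2G3, a secreted phospholipase, at 236 ± 22.1, FABP7, a fatty acid binding protein of neural cells, at 212 ± 21.5, NEFH, the heavy neurofilament chain, at 157 ± 7.68, PRXL2A at 135 ± 2.98 and the MHC class II chain HLA-DQB1 at 132 ± 8.0, all with no count in PC3. The FABP7 level was not shared by both 22Rv1 populations: 3938 to 4733 counts with the control guide and 11 to 18 with gRNA 10. Toward PC3 the corresponding genes were MSMP, SULF2, ABCC3, S100A16, LINC02582, PHACTR3, MIR100HG, PI3, GRAMD1B and KRT20. MSMP, a secreted microseminoprotein, stood at 7191, 6332 and 6962 CPM in PC3 and had 2 counts in each 22Rv1 library, at least 45220-fold lower. SULF2, an enzyme that removes sulfate from heparan chains, was at 1426 ± 14.6 CPM in PC3 and the drug efflux pump ABCC3 at 805 ± 9.07, while both were at the floor in 22Rv1. KRT20, a keratin of intestinal and umbrella cells, was at 181 ± 9.66 CPM in PC3 with no count in 22Rv1.

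The genes that differed most in CPM toward 22Rv1 were RPSA, RPS2, TUBA1B, SYT4 and ALDH3A2. RPSA and RPS2, of the small ribosomal subunit, stood at 3169 ± 196 and 3077 ± 367 CPM in 22Rv1 against 963 ± 25.3 and 1099 ± 55.6 in PC3. Toward PC3 they were FTH1, MSMP, COL6A1, APP and COL6A2. FTH1, the heavy chain of the iron store ferritin, stood at 12667 ± 555 CPM in PC3 against 745 ± 56.6 in 22Rv1. Levels of RPSA, RPS2, TUBA1B, FTH1, KRT8, KRT18, KRT16, IKBKG, BEX1, the HLA genes, KLK2 and KLK3, the MAGEA genes, CTAG2 and the clustered zinc finger genes are less certain, since these have pseudogenes or close copies and how shared reads were counted is not given in the sources used here.

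Androgen-responsive genes were mostly higher in 22Rv1. Of 37 tested, 27 (73.0%) were higher in 22Rv1 and 3 (8.11%) higher in PC3, with a median log2 difference of 2.69 against 0.04 over all genes tested. KLK2, the neighbour of KLK3, was at 85.7, 91.4 and 103 CPM in 22Rv1. KLK4, a further secreted kallikrein, was at 580, 436 and 579 CPM. Both had no count in PC3, which places them at least 598-fold and at least 3411-fold lower there. ZBTB16, a zinc finger repressor, was at 54.8 ± 7.56 CPM in 22Rv1 with no count in PC3. FKBP5, a chaperone of steroid receptors, stood at 775 ± 48.7 CPM against 29.2 ± 1.73, PMEPA1, an inhibitor of TGF-beta signalling, at 852 ± 34.9 against 8.50 ± 0.348, and FOLH1 (prostate-specific membrane antigen) at 149 ± 13.1 against 0.433 ± 0.0796. The exceptions were NDRG1, a stress-responsive gene that is also a hypoxia target, at 19.4 ± 2.41 CPM in 22Rv1 and 422 ± 14.5 in PC3, the metalloreductase STEAP4, and the cation channel TRPM8, which was low in both lines. FKBP5, PMEPA1, FOLH1, TRPM8 and other list members described here outside the naming rule were chosen after their values were seen.

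Luminal identity genes did not move as one group. Of 18 luminal lineage genes tested, 4 (22.2%) were higher in 22Rv1 and 10 (55.6%) higher in PC3. GATA2, a zinc finger transcription factor, was at 430 ± 33.9 CPM against 110 ± 5.05. GRHL2, given with the epithelial genes below, is also on this list and was higher in 22Rv1 at a log2 difference of 8.89. FOXA1, a pioneer factor that opens chromatin, was present in both lines at 417 ± 29.2 and 220 ± 9.60 CPM and stayed under 2-fold, at a log2 difference of 0.92 ± 0.07 (edgeR adjusted p = 4.44e-08). HOXB13, a prostate homeobox factor, went the other way, at 342, 291 and 337 CPM in 22Rv1 and 1589, 1537 and 1578 in PC3. The luminal keratin KRT19 was at 6.58 ± 0.784 CPM in 22Rv1 and 519 ± 16.9 in PC3. AGR2, a disulfide isomerase of secretory cells, stood at 1.5 ± 0.171 against 253 ± 24.7. The peptidase DPP4 stood at 0.849 ± 0.195 against 365 ± 6.65. With gRNA 10 it had 121 to 125 counts in 22Rv1 and 134 to 146 in PC3, a log2 difference of -0.20. KRT8 was at 162 ± 16.1 CPM in 22Rv1 and 359 ± 7.45 in PC3. Its partner KRT18 stood at 182 ± 13.8 against 365 ± 5.55, a log2 difference of -1.0 that falls short of 2-fold under several other settings.

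**Figure D2:**
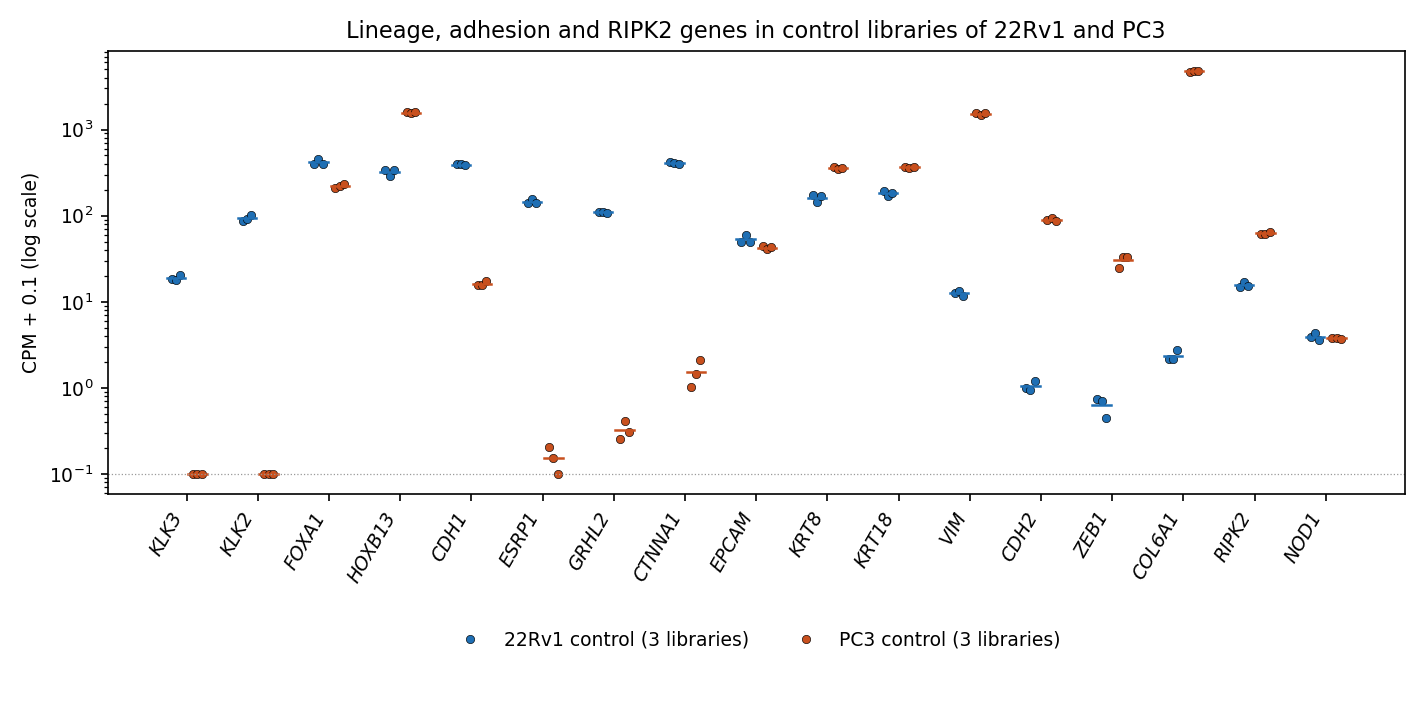
CPM + 0.1 (log scale) of 17 named genes in each control library of 22Rv1 (blue) and PC3 (orange), with a horizontal bar at the mean of the 3 libraries. Points on the dotted line have 0 counts; NOD1 overlaps between the lines, and KLK3, CDH1, VIM, COL6A1 and RIPK2 do not.

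Epithelial adhesion genes were mostly higher in 22Rv1, and mesenchymal genes mostly higher in PC3. CDH1 stood at 400, 393 and 384 CPM in 22Rv1 and at 15.4, 15.6 and 17.4 in PC3, a log2 difference of 4.60 ± 0.08 (edgeR adjusted p = 3.39e-14). CTNNA1 (alpha-catenin), which ties cadherins to actin and which PC3 is described as lacking, stood at 419, 412 and 402 CPM against 0.935, 1.35 and 2.02. Of 42 junction, polarity and epithelial splicing genes tested, 22 (52.4%) were higher in 22Rv1 and 3 (7.14%) higher in PC3, with a median log2 difference of 1.19. AP1M2, which sorts cargo to the basolateral membrane, was at 161 ± 7.78 CPM in 22Rv1, and ESRP1, the epithelial splicing regulator, at 145 ± 8.81. PRSS8, a membrane protease, was at 27.3 ± 3.34. All 3 were at the floor in PC3, at least 1030-fold, at least 933-fold and at least 175-fold lower. GRHL2, a transcription factor that maintains epithelial identity, was at 110 ± 2.16 CPM against 0.225 ± 0.0793. ESRP2, the other epithelial splicing regulator, was at 94.7 ± 7.54 and 60.5 ± 0.942, under 2-fold. CLDN1, CLDN4 and PKP2 were the 3 members higher in PC3. EPCAM, a general epithelial surface marker, was at 49.8, 59.9 and 49.2 CPM in 22Rv1 and at 44.2, 40.7 and 42.6 in PC3, a log2 difference of 0.32 ± 0.09 (edgeR adjusted p = 0.00558). Under the alternative settings listed at the end, the EPCAM difference ranged from 0.23 to 0.51, and its adjusted p did not always stay under 0.05. The log2 differences of EPCAM, KRT8 and KRT18 were thus small beside that of CDH1.

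Of 42 mesenchymal genes tested, 34 (81.0%) were higher in PC3 and 3 (7.14%) higher in 22Rv1, with a median log2 difference of -4.66, or -4.41 with genes at the floor set to their bound. COL6A1 and COL6A2, chains of collagen VI, stood at 4730 ± 68.0 and 2930 ± 57.7 CPM in PC3 and at 2.27 ± 0.347 and 0.300 ± 0.134 in 22Rv1. The receptor kinase AXL was at 145, 154 and 152 CPM in PC3 with no count in 22Rv1, at least 994-fold lower. CDH11, a mesenchymal cadherin, was at 378 ± 16.8 CPM in PC3 and at the floor in 22Rv1. Fibronectin (FN1) stood at 2331 ± 113 CPM in PC3 against 72.1 ± 5.33, N-cadherin (CDH2) at 89.6 ± 3.57 against 0.950 ± 0.138, and ZEB1 at 24.9, 33.1 and 32.7 CPM against 0.646, 0.599 and 0.352. The 3 members higher in 22Rv1 were CAVIN1, a caveola coat gene, PRRX1, a homeobox factor, and THBS1, a matrix glycoprotein. Basal cell genes went with the mesenchymal ones, with 13 of 15 tested (86.7%) higher in PC3 and 1, SFN, higher in 22Rv1. The 13 were integrin, laminin and keratin genes for the most part, such as KRT15 at 35.4 ± 1.38 CPM in PC3 with no count in 22Rv1. The defining basal genes TP63, KRT5 and KRT14 did not pass the filter: TP63 had 8 to 15 counts and KRT14 7 to 10 in PC3 libraries, and KRT5 at most 1 in any library.

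The promoters of a few of these genes are shown for 2 motifs, AGAACA, which androgen response elements carry, and the E-box CACCTG, searched on both strands in the 250 bases before and 50 after the annotated start. The motifs can share their CA, since one ends and the other begins with it. Sequences are RefSeq promoters of build GRCh38.p14, given from 250 bases before the start up to the start, with matches in capitals. KLK3 (chr19:50854665-50854914, plus strand) has AGAACA at position -170 from the start, AP1M2 (chr19:10587313-10587562, minus strand) has CACCTG 3 times and DSP (chr6:7541421-7541670, plus strand), a desmosome gene at 167 ± 13.5 CPM in 22Rv1 and 38.0 ± 1.78 in PC3, has the reverse complement CAGGTG 2 times. These 3 are shown as examples that hold a match.
KLK3: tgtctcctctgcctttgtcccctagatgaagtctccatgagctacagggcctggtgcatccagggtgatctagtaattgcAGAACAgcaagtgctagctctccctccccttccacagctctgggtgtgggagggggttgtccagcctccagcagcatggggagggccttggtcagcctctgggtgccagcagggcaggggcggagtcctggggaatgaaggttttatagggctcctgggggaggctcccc
AP1M2: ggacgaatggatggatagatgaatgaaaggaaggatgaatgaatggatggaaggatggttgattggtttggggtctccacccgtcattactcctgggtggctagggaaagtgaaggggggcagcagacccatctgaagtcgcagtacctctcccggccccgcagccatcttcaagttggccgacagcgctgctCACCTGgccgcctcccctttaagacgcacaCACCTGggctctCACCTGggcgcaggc
DSP: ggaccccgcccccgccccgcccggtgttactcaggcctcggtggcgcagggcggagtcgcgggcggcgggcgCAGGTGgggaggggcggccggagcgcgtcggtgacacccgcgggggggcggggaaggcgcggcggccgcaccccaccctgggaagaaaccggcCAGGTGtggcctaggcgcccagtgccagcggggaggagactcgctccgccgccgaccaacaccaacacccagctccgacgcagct
Among 11648 tested genes with a promoter in the table, AGAACA was found in 8.87% and CACCTG in 18.8%; over all 27305 promoters the shares were 14.9% and 20.6%. AGAACA was found in 3 of 26 promoters of the androgen-responsive genes (11.5%), those of KLK3, FKBP5 and PMEPA1, in 6 of 34 of the mesenchymal genes (17.6%) and in 1 of 23 of the epithelial junction genes (4.35%). The share was thus higher in the mesenchymal list than in the androgen-responsive one. CACCTG was found in 11 of 23 promoters of the epithelial junction genes (47.8%), in 9 of 26 of the androgen-responsive genes (34.6%) and in 4 of 34 of the mesenchymal genes (11.8%). It was found in 597 of 2846 promoters of genes higher in 22Rv1 and in 556 of 2921 of those higher in PC3. Within the epithelial junction list, CACCTG was found in 6 of 14 promoters of members higher in 22Rv1 (42.9%). That share was not above the 47.8% of the whole list. Of the junction members higher in PC3, 0 of 2 promoters had it. A match is a description of the letters, not a bound site.

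**Figure D3:**
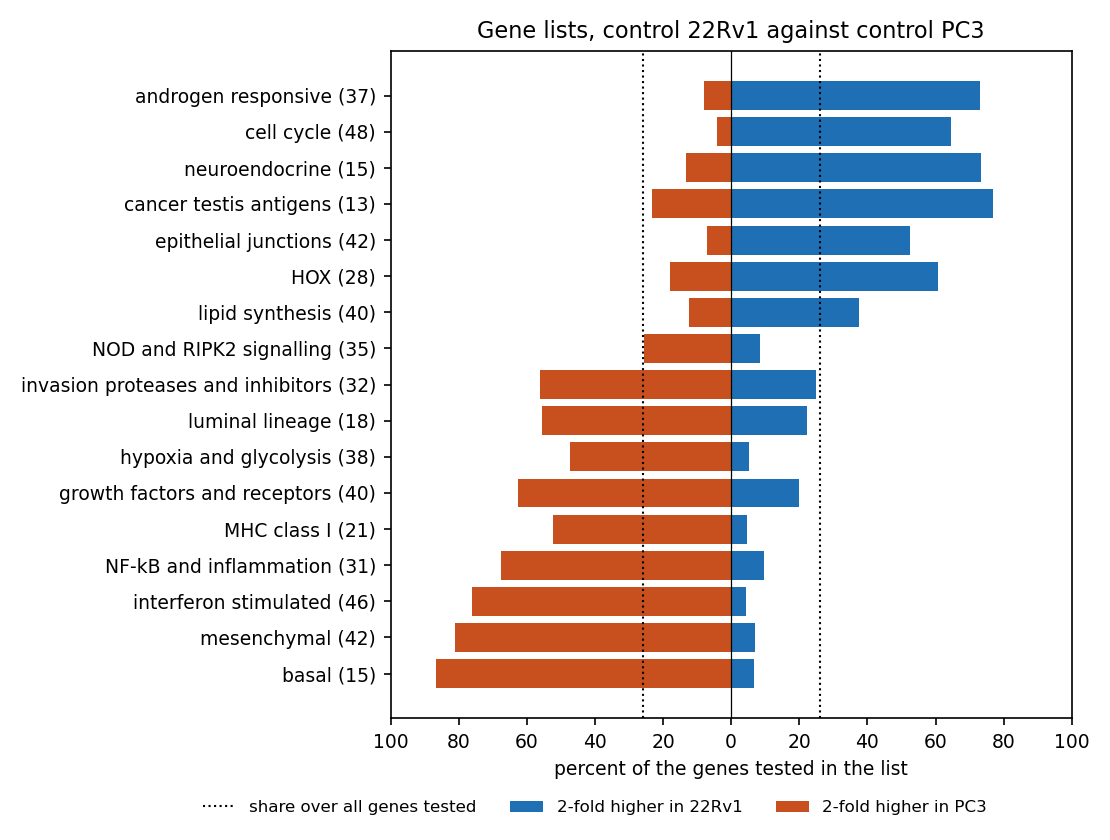
Share of the genes tested in each of 17 gene lists (number tested in brackets) that was 2-fold higher in 22Rv1 (blue, to the right) or in PC3 (orange, to the left), in percent. The dotted lines mark 26.0%, the share over all genes tested in each direction; basal, mesenchymal and interferon genes reach farthest toward PC3.

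The list of invasion genes holds secreted and membrane proteases with their receptors and inhibitors. Of 32 tested, 18 (56.2%) were higher in PC3 and 8 (25.0%) higher in 22Rv1, where 26.0% of all genes were higher in each direction. PLAU (urokinase), which activates plasminogen, was at 311, 321 and 307 CPM in PC3 and at the floor in 22Rv1, at least 2072-fold lower. The collagenases MMP1 and MMP13 were at 70.8 ± 0.574 and 70.5 ± 2.90 CPM in PC3 with no count in 22Rv1. In the other direction, the epithelial serine proteases hepsin (HPN) and TMPRSS4 were higher in 22Rv1; HPN stood at 58.8 ± 9.07 CPM and was at the floor in PC3.

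Inflammatory and interferon genes were mostly higher in PC3. Of 31 NF-kB and inflammatory genes tested, 21 (67.7%) were higher in PC3 and 3 (9.68%) in 22Rv1. The neutrophil chemokines CXCL1 and CXCL6 were at 19.7 ± 0.713 and 18.2 ± 0.988 CPM in PC3, and the cytokine IL1B at 15.2 ± 0.195, each with no count in 22Rv1. The NF-kB subunit RELA stood at 74.5 ± 3.97 CPM in 22Rv1 and 161 ± 4.78 in PC3, RELB at 0.417 ± 0.178 and 10.6 ± 0.254, and NFKB1 at 42.3 ± 3.59 and 38.9 ± 1.31 (edgeR adjusted p = 0.194 for NFKB1). NFKBIA, the inhibitor that NF-kB induces, went the other way at 50.4 ± 0.886 CPM in 22Rv1 and 14.4 ± 1.17 in PC3. Of 46 interferon stimulated genes tested, 35 (76.1%) were higher in PC3 and 2 (4.35%), HERC5 and USP18, higher in 22Rv1. OAS1, a sensor of double-stranded RNA, was at 71.1, 57.7 and 46.3 CPM in PC3 and at 0.0999 ± 0.0498 in 22Rv1. OAS2 stood at 46.6, 37.7 and 29.4 CPM in PC3. SAMD9L had 321, 243 and 213 counts in PC3 and none in 22Rv1. These 3 genes were highest in the same PC3 library and lowest in another, but no PC3 library came near the 22Rv1 level. For MHC class I and its peptide loading, 11 of 21 genes (52.4%) were higher in PC3 and 1 (4.76%), TAPBPL, in 22Rv1. The peptide-trimming enzyme ERAP2 stood at 23.4 ± 1.31 CPM in PC3 against 0.60 ± 0.303 and the transactivator NLRC5 at 9.76 ± 2.07 against 0.517 ± 0.154. HLA-B, HLA-C and B2M, the light chain, were not called 2-fold.

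RIPK2, the kinase that the series targets, acts below NOD1 and NOD2, which sense bacterial cell wall fragments, and activates NF-kB. It was at 14.7, 16.9 and 15.1 CPM in 22Rv1 and at 61.9, 61.9 and 65.1 in PC3, a log2 difference of -2.02 ± 0.09 (edgeR adjusted p = 1.17e-10). NOD1 was at 3.83 ± 0.362 CPM in 22Rv1 and 3.69 ± 0.0932 in PC3, and a difference was not detected (log2 0.06 ± 0.14, edgeR adjusted p = 0.719). NOD2 was at the floor in both lines, with 1 count in each of 2 of the 22Rv1 libraries and none in PC3. Of 35 NOD and RIPK2 signalling genes tested, 9 (25.7%), RIPK2 among them, were higher in PC3, which is close to the share over all genes, and 3 (8.57%) were higher in 22Rv1. Members higher in PC3 included IKBKG, the regulatory subunit of the IKK complex, CARD6, and SLC15A3, a peptide transporter; MAPK8 (JNK1), CHUK and SLC15A2 were higher in 22Rv1. MAPK8 stood at 72.5 ± 5.76 CPM in 22Rv1 and 16.6 ± 0.431 in PC3.

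Neuroendocrine and cell cycle genes were mostly higher in 22Rv1. Of 15 neuroendocrine genes tested, 11 (73.3%) were higher in 22Rv1 and 2 (13.3%) in PC3. The synaptic vesicle gene SYP was among the 11, and the vesicle genes SCG3 and SNAP25 were at 45.4 ± 6.17 and 35.1 ± 3.37 CPM in 22Rv1 with no count in PC3. The defining neuroendocrine genes CHGA, INSM1 and NCAM1 did not pass the filter, and the fork head factor FOXA2, at 25.6 ± 0.982 CPM in PC3 with no count in 22Rv1, went against the list, as did DLL3. Of 48 cell cycle genes tested, 31 (64.6%) were higher in 22Rv1 and 2 (4.17%) in PC3. Among them were E2F2 at 106 ± 4.24 CPM against 6.61 ± 0.32 and the mitotic kinase AURKB at 122 ± 13.9 against 16.3 ± 0.333. CCND3 (cyclin D3) stood at 974, 813 and 983 CPM in 22Rv1 and at 67.5, 61.6 and 67.4 in PC3. The 2 members higher in PC3 were the kinase inhibitors CDKN2B and CDKN1C.

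Metabolic lists split by pathway. Of 40 cholesterol and fatty acid synthesis genes, 15 (37.5%) were higher in 22Rv1 and 5 (12.5%) in PC3. FDFT1, which makes squalene, stood at 1380 ± 36.7 CPM in 22Rv1 against 76.1 ± 1.52, the elongase ELOVL6 at 372 ± 44.2 against 11.4 ± 1.01 and HMGCS1, an early enzyme of the mevalonate pathway, at 862 ± 93.8 against 93.8 ± 2.19. The desaturase FADS2 went the other way. Of 38 hypoxia and glycolysis genes tested, 18 (47.4%) were higher in PC3 and 2 (5.26%), EPAS1 and EGLN3, in 22Rv1. The lactate transporter SLC16A3 stood at 284 ± 5.64 CPM in PC3 against 6.52 ± 1.70, and the phosphofructokinase PFKP had a log2 difference of -5.02.

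Growth factors and their receptors were higher in PC3 for 25 of 40 genes tested (62.5%) and higher in 22Rv1 for 8. The insulin-like growth factor binding proteins divided between the lines. IGFBP4 stood at 971 ± 18 CPM and IGFBP6 at 161 ± 6.99 in PC3, both at the floor in 22Rv1. IGFBP2 was at 165 ± 29.7 CPM in 22Rv1 and 0.311 ± 0.137 in PC3. The receptor kinase KIT was at 11.1 ± 0.229 CPM in 22Rv1 with no count in PC3. EGFR was at 29.7 ± 1.80 and 50.2 ± 5.63 CPM, under 2-fold.

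HOX genes, which record position along the body axis, were higher in 22Rv1 for 17 of 28 tested (60.7%) and higher in PC3 for 5 (17.9%). HOXC12 was at 25.1 ± 1.70 CPM, HOXB7 at 7.92 ± 0.608 and HOXD9 at 5.58 ± 0.66 in 22Rv1, each with no count in PC3. The HOXA cluster divided by position: HOXA5, HOXA6 and HOXA7 were higher in 22Rv1, and HOXA9, HOXA10, HOXA11 and HOXA13 higher in PC3, which was noticed after the values were seen. HOXA13 stood at 5.45 ± 0.712 CPM in 22Rv1 and 100.2 ± 3.35 in PC3. Of 13 cancer testis antigen genes tested, 10 (76.9%) were higher in 22Rv1 and 3 (23.1%) in PC3. MAGEA4, MAGEA1 and CTAG2 were at 216 ± 7.69, 131 ± 6.54 and 119 ± 19.2 CPM in 22Rv1 with no count in PC3. MAGED1 and MAGED2, which many normal tissues express, and PRAME were the 3 higher in PC3.

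Neighbouring genes were silent together in one line at 7 places, where silent means at most 3 counts in every library. A run here is at least 3 expressed protein-coding genes next to each other that each had at most 3 counts in every library of one line and at least 100 in every library of the other, among 11450 expressed protein-coding genes in chromosome order; the length of 3 was chosen after the data were seen. Of the 11450 genes, 292 were silent in PC3 by this rule and 207 in 22Rv1. There were 25 further pairs and 420 genes that stood alone. The longest run was on chromosome 17 (GRCh38.p14, chr17:42113111-42522579, 409.5 kb) and held KAT2A, a histone acetyltransferase, RAB5C, GHDC, the transcription factors STAT5B, STAT5A and STAT3, and ATP6V0A1, a proton pump subunit. STAT3 had 948, 934 and 895 counts in 22Rv1 and 0, 1 and 0 in PC3. The PC3 libraries had 0 or 1 count for each of the 7 genes, and the 22Rv1 libraries 262 to 2606. The low-expressed gene DHX58, next to KAT2A, and CAVIN1, inside the run, had at most 2 counts in PC3 too. Farther out, NKIRAS2 and NAGLU had 872 to 909 and 353 to 393 counts in PC3. In the PC3 libraries with gRNA 10 the 7 genes again had at most 4 counts each, and in DU145 control libraries they had 140 to 8836. RNA counts do not show whether the DNA of the region is present.

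**Figure D4:**
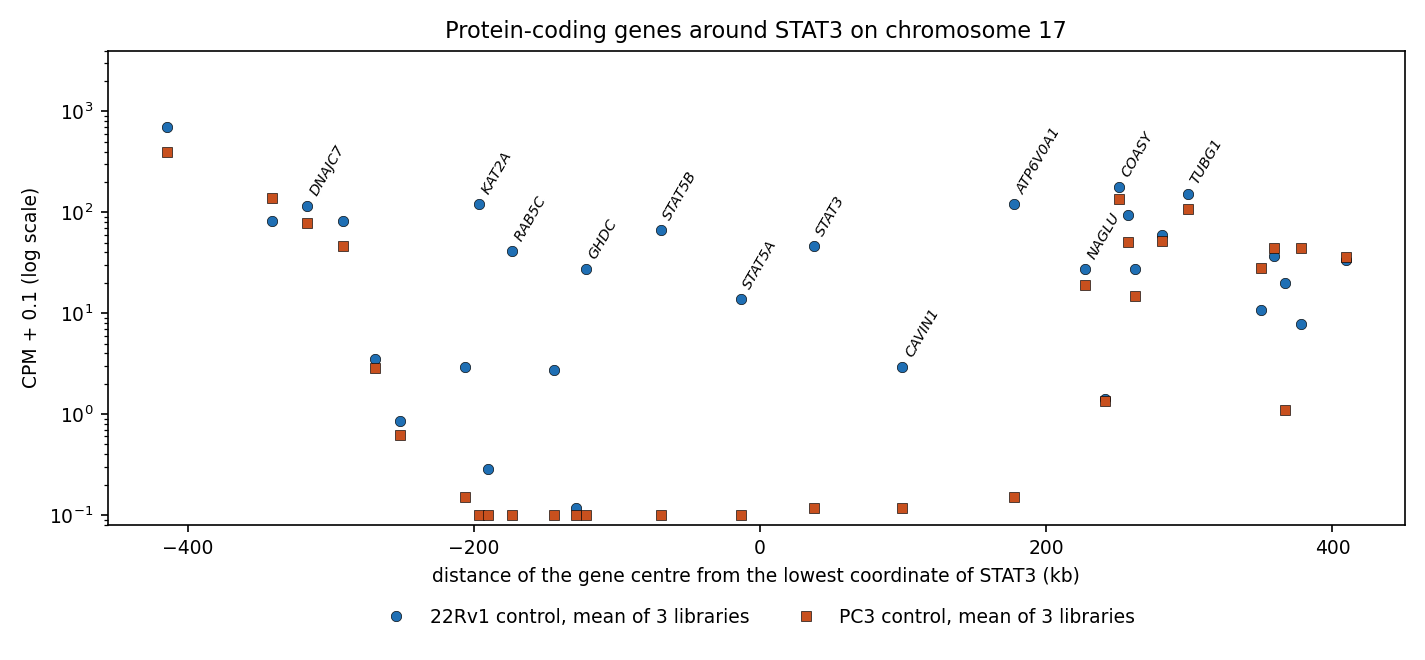
Mean CPM + 0.1 (log scale) of protein-coding genes around STAT3 in the control libraries of 22Rv1 (blue circles) and PC3 (orange squares), by the distance of the gene's centre from the lowest coordinate of STAT3 in kb. From KAT2A to ATP6V0A1 the PC3 points lie at the bottom of the plot, while genes on both sides, such as NAGLU and DNAJC7, have reads in both lines.

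On chromosome 19, 6 kallikreins (KLK1, KLK15, KLK3, KLK2, KLK4 and KLK11) formed a run of 208.8 kb (chr19:50819146-51027991) that was silent in PC3. Silent in PC3 too was a run of the zinc finger genes ZNF100, ZNF43, ZNF257 and ZNF676 (chr19:21722771-22260304). It was not silent in all PC3 cells of the series: with gRNA 10, PC3 libraries had 201 to 211 counts of ZNF100, 363 to 431 of ZNF43 and 39 to 49 of ZNF257, while ZNF676 stayed at 0. On chromosome 16, the homeobox genes IRX3 and IRX5 and the acyltransferase LPCAT2 were silent in PC3 (chr16:54283304-55586666), though LPCAT2 had 97 to 125 counts in PC3 with gRNA 10. The runs silent in 22Rv1 were S100A4, S100A2 and S100A16, calcium binding proteins, on chromosome 1, the ETS factors ETS1 and FLI1 with ARHGAP32 (263 to 292 counts in 22Rv1 with gRNA 10) on chromosome 11, and the chemokines CXCL8, CXCL6 and CXCL1 on chromosome 4. S100A16 was at 666 ± 8.96 CPM in PC3 and ETS1 at 45.0 ± 3.95, both with no count in 22Rv1.

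The same line difference was measured in libraries that the comparison above did not use, those of 22Rv1 and PC3 with RIPK2 gRNA 10. RIPK2 itself had at most 108 counts in each of those 22Rv1 libraries and 527 to 588 in those of PC3. Of 15543 genes tested there, 7995 (51.4%) were called 2-fold. Of the 7992 genes called between the controls, 5655 (70.8%) were called in the same direction with gRNA 10. Another 1476 (18.5%) had the same direction without the call, 285 (3.57%) the opposite direction without the call and 435 (5.44%) were not tested. The other 141 (1.76%) were called in the opposite direction. By list, the same call was found again for 32 of 34 mesenchymal genes higher in PC3, 33 of 35 interferon stimulated genes higher in PC3, 11 of 11 neuroendocrine genes higher in 22Rv1, 21 of 27 androgen-responsive genes and 22 of 31 cell cycle genes higher in 22Rv1, and 8 of 18 hypoxia and glycolysis genes higher in PC3. Of the 10 luminal lineage genes higher in PC3, 7 had the same call and 2 the opposite one. The 2 sets of libraries differ in the guide and in the population, which cannot be told apart.

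**Figure D5:**
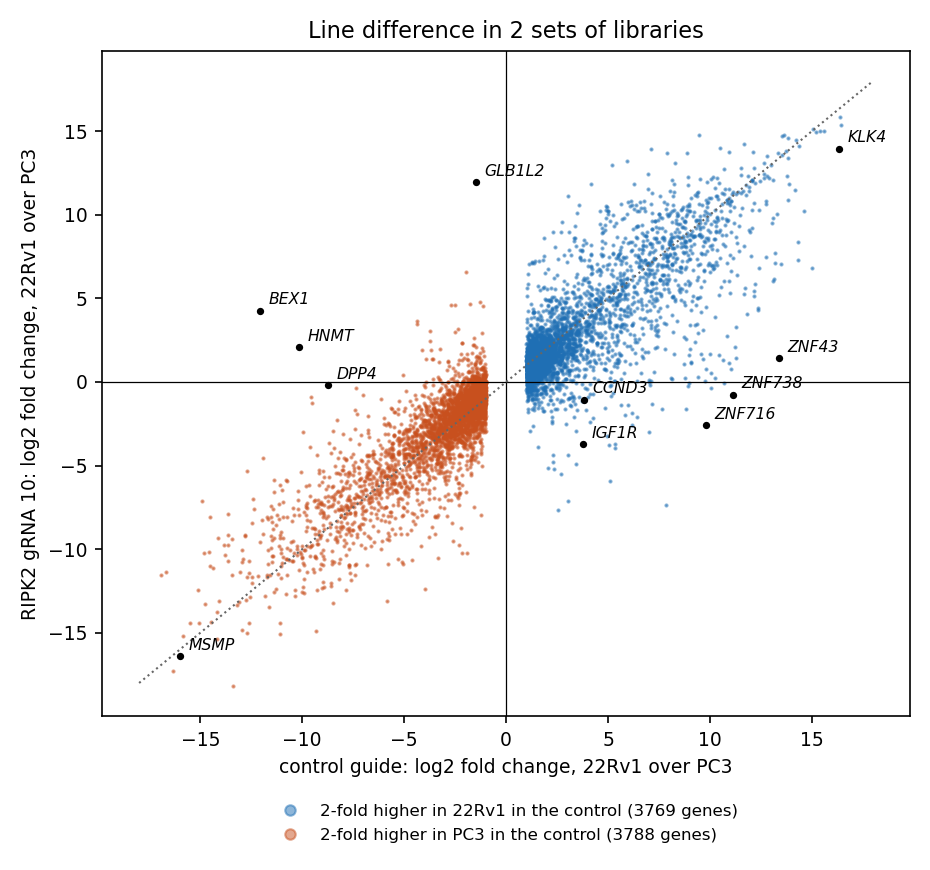
Log2 fold change of 22Rv1 over PC3 with the control guide (horizontal) and with RIPK2 gRNA 10 (vertical) for genes 2-fold higher in 22Rv1 (blue) or PC3 (orange) between the controls that were also tested with gRNA 10. Points on the dotted diagonal have the same value in both sets; BEX1, GLB1L2 and HNMT lie above 0 on the vertical axis and below 0 on the horizontal one, and values of genes with almost no counts in a group depend on the fit's prior count.

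For some genes the line difference itself differed between the 2 sets. In an edgeR fit of the 12 libraries with a test against a difference of 2-fold (glmTreat), 2321 of 16193 genes (14.3%) passed an adjusted p of 0.05. Of these, 1586 were 2-fold different between the controls, and 417 had opposite directions in the sets. Among genes 2-fold different between the controls, with a mean of at least 100 counts in a control group, the differences were largest for BEX1, GLB1L2, ZNF716, HNMT, ZNF43 and ZNF738. BEX1, a small adaptor gene on the X chromosome, had no count in control 22Rv1 and 476 to 570 counts in control PC3, and with gRNA 10 it had 559 to 642 in 22Rv1 and 30 to 32 in PC3. GLB1L2, a galactosidase-like gene, had 966 to 1068 counts in control PC3 and 0 in each PC3 library with gRNA 10, while 22Rv1 had 367 to 404 and 476 to 523. HNMT, which inactivates histamine, had no count in control 22Rv1 and 192 to 216 with gRNA 10. ZNF716 and ZNF738 had no count in control PC3 and 67 to 91 and 216 to 255 with gRNA 10.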

How the data were processed

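Per the labels' protocols, total RNA was column-purified and made into strand-specific mRNA libraries for paired-end DNBSEQ sequencing. Raw read counts per gene symbol were deposited by the authors, 1 table per line. FastQC, STAR and edgeR are named with build hg38, per the submitters' processing notes, without versions; the counter, annotation and strand setting are not given in the sources used here. The 22Rv1 and PC3 tables were joined on the symbol (26493 symbols, 21348 in both), and a symbol missing from a table was taken as 0 counts. That is an assumption, since the authors' filter is not given in the sources used here; no row of the tables is all 0, and the smallest row total is 1. For PC3, 80 symbols without a row have at least 100 counts in every 22Rv1 control library; for 22Rv1, 36 symbols without a row have that many in every PC3 control library. The titles number the PC3 control replicates 1 to 3, while the library names use 1, 3 and 4.

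The main test was edgeR 4.0.16 in R 4.3.3, with TMM factors, filterByExpr (minimum count 10, minimum total 15), the robust quasi-likelihood F test and Benjamini-Hochberg adjustment over all genes tested. The fit held the 6 control libraries without covariates; the gRNA 10 libraries were fitted alone and, for the interaction, together with the controls (12 libraries, glmTreat against 2-fold). CPM were scaled by the TMM factors, and the log2 fold change is 22Rv1 minus PC3. Gene coordinates and promoters came from RefSeq tables of GRCh38.p14.

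The genes named were markers and the targeted gene, up to 5 members of each gene list by fold, the 10 largest folds and 5 largest CPM differences in each direction, the 6 largest differences between the control and gRNA 10 sets, and members of runs. Genes of the Y chromosome, XIST and mitochondrially encoded genes were kept in the fits and not named, and results for a few further genes are not reported here. The comparison, the gene lists and this rule were chosen with earlier results of these data known. The script was tested on simulated data for this comparison. With 200 genes changed, it recovered 83% at 1.5-fold (15037 genes tested), 96% at 2-fold (15027) and 99.5% at 4-fold (15021). False calls numbered 19, 17 and 14. Between the lines 13317 of 15358 genes were called, and recovery with that many genes changed was not tested. The alternatives were DESeq2 1.42.0, its size factors in edgeR, library totals only, no filter or a stricter one, mitochondrially encoded genes left out, only symbols in both tables, all 27 libraries in the fit, glmTreat, a replicate block, and each library left out in turn. Libraries of RIPK2-targeted cells with other guides were used only in the fit of all 27, and DU145 otherwise only for counts in the runs.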

Additional observations from a re-analysis of the deposited data

Results flagged for a closer look

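In 43 of the genes picked by the naming rule, the line difference with the control guide differed from that with RIPK2 gRNA 10 by more than 2-fold in the interaction test (edgeR glmTreat, adjusted p under 0.05). Of all genes tested, 14.3% passed this test. The values below are log2 differences, control set minus gRNA 10 set. Where a group had almost no counts, the value depends on the prior count of the fit, and the counts are the better guide. No explanation was tested, and the guide and the cell population cannot be told apart. With each of the 12 libraries left out in turn, 36 of the 43 passed each time; EPCAM, GRAMD1B, HLA-DQB1, IRX5, S100A16, SULF2 and USP18 did not.

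Genes with a positive value, meaning relatively more 22Rv1 expression in the control set, included the kallikrein KLK11 at 5.90 and cyclin D3 (CCND3) at 4.89. For CCND3, 22Rv1 had 16279 to 19601 counts with the control guide and 955 to 980 with gRNA 10. PC3 had 1186 to 1299 and 1906 to 2028, so PC3 was the higher line with gRNA 10 (log2 difference -1.05). The zinc finger genes of chromosome 19 and their relatives had some of the largest values, with ZNF716 at 12.44, ZNF43 at 12.01, ZNF738 at 11.94, ZNF100 at 9.32 and ZNF257 at 9.21. LPCAT2 was at 10.05 and its neighbour IRX5 at 3.77 (3.76, edgeR adjusted p = 0.127, without the first PC3 control library). ESRP1, the epithelial splicing regulator, was at 8.03: PC3 had 0 to 2 counts with the control guide and 181 to 250 with gRNA 10. IGFBP2 was at 7.10, HLA-DQB1 at 7.07 (5.30, adjusted p = 0.172, without the third PC3 library with gRNA 10), MAGEA1 at 6.02 and PRRX1 at 4.97. The interferon genes HERC5 and USP18 were at 3.01 and 1.35, TAPBPL at 2.71 and NFKBIA at 2.30. The keratins KRT19 and KRT8 were at 2.64 and 1.86, and the lipid genes FDFT1 and FADS2 at 1.47 and 1.28.

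Genes with a negative value had relatively more PC3 expression in the control set. BEX1 was at -16.35, GLB1L2 at -13.39 and HNMT at -12.21, with line differences of opposite sign in the sets. The sign differed for further flagged genes of either direction, such as CCND3, HERC5 and CLDN4. ARHGAP32 was at -8.65, DPP4 at -8.52 and ABCC3 at -5.42. GRAMD1B was at -7.84 and S100A16 at -5.29, and the size of both turns on 1 library. 22Rv1 had no count of either with the control guide. With gRNA 10 it had 2, 0 and 19 counts of GRAMD1B and 1, 2 and 17 of S100A16. Without the third of these libraries GRAMD1B was at -5.18 (edgeR adjusted p = 0.054) and S100A16 at -3.23 (edgeR adjusted p = 0.227). The calls depended on other libraries as well. Without the second 22Rv1 control library the edgeR adjusted p was 0.113 for GRAMD1B and 0.417 for S100A16. S100A16 missed the threshold with most libraries left out. The tight junction genes CLDN1 and CLDN4 were at -3.90 and -2.24 and EPCAM at -1.26. PHLDA3 and PLK2, which are not described above, were at -3.55 and -1.75. NDRG1 was at -3.42 and EGLN3 at -3.41. HOXA11 and HOXA13 were at -2.79 and -1.58, SULF2 at -2.70 (-1.74, edgeR adjusted p = 0.616, without the first 22Rv1 library with gRNA 10), AGR2 at -2.61, ERAP2 at -2.31 and FTH1 at -1.66. SULF2 missed the threshold with most other libraries left out too, such as the second 22Rv1 control library (-2.19, edgeR adjusted p = 0.175).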

How the results depend on the processing

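Of the summary counts under the alternatives, 729 kept their size within 1.5 times and 37 did not; of the values of named genes, 2286 kept their direction and side of the threshold, 9 lost the 2-fold call and 1 reversed. Asking for at least 10 counts in every library, which drops genes without reads in one line, lowered the 2-fold count to 5115, with 2399 higher in 22Rv1, the share found again with gRNA 10 to 44.6% and the interaction count to 1385. Under it the members called higher in 22Rv1 were 12 for epithelial junction, 1 for mesenchymal, 4 for invasion, 0 for MHC class I, 5 for neuroendocrine, 1 for hypoxia, 3 for growth factor, 3 for HOX, 3 for cancer testis genes and 0 for markers of other cell types. Those higher in PC3 were 1 for androgen-responsive genes, 20 for mesenchymal, 8 for basal, 9 for invasion, 20 for interferon, 1 for neuroendocrine, 15 for growth factor genes and 0 for markers of other cell types. With all 27 libraries fitted, basal genes higher in 22Rv1 were 2 and markers of other cell types 5 and 3; with no filter the basal count was 2, cancer testis genes higher in PC3 were 5 and other cell type markers higher in PC3 were 4; with only symbols in both tables, cancer testis genes higher in 22Rv1 were 6. With 1 library left out in turn, 12979 to 13885 genes passed the adjusted p and 8140 to 8243 were called 2-fold; basal genes higher in 22Rv1 ranged from 1 to 2 and other cell type markers higher in PC3 from 1 to 2. NOD1 ranged from -0.0052 without the second 22Rv1 library, where it reversed, to 0.14 without the third. KRT18 fell under 2-fold at -0.82 with library totals only, -0.94 without the second 22Rv1 library and between -0.987 and -0.997 without the third, with DESeq2 or its size factors, with all libraries and with the stricter filter, and was not called by glmTreat; KRT8 was at -0.96 with library totals only. glmTreat against 2-fold called 7007 genes and DESeq2 7972. Deviations of same-numbered libraries correlated at 0.075, 0.2239 and -0.0371, and those of differently numbered libraries at -0.205 to 0.2209. This cannot settle whether libraries were processed in pairs, since the PC3 library names and titles carry different numbers. With a replicate block 13360 genes passed the adjusted p and 7980 were called 2-fold. Depth limits genes at 3 counts or fewer, whose fold is only a lower bound; intervals between libraries cover this spread and not that between cultures or other lines.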

Other observations

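The line difference was uneven over the chromosomes. Of 163 genes tested on chromosome 21, 46.6% were 2-fold higher in PC3 and 14.1% higher in 22Rv1, with a median log2 difference of -0.89. Chromosome 20 had a median of -0.60, with 39.2% of 418 genes higher in PC3, and chromosome 14 one of -0.47. In the other direction, 40.7% of 577 genes on chromosome 4 were higher in 22Rv1 and 18.9% higher in PC3, with a median of 0.64. Chromosomes 13, 1 and 22 had medians of 0.47, 0.46 and 0.44. These are descriptions over genes of the same 6 libraries, given without a test, and RNA counts do not measure copy number.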
